A study of Mus musculus with 10 samples.

Results

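Ncoa7 was followed together with 8 genes that share its name, its domain or its class of function. The 9 genes were Ncoa7, its paralog Oxr1, the nuclear receptor coactivator genes Ncoa1 to Ncoa6 and the corepressor gene Ncor1, out of 55809 gene rows. All 9 were among the 16363 genes that were tested, those with a mean count of at least 10. Ncoa7 was picked on the contrast described here, because its level rose by more than 2-fold in R26-TIR1(F74G) at high abundance, so its difference between the groups is a description with no test. The other 8 genes were listed by name, and the question put to them was whether they follow Ncoa7.

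The libraries are bulk RNA-seq of Treg cells pooled from peripheral lymph nodes and spleen, 4 from R26-WT mice and 6 from R26-TIR1(F74G) mice. Every mouse carried a Foxp3 allele whose product is a fusion of Foxp3 and an auxin-inducible degron (AID), and which also makes ZsGreen and Cre, and every mouse was given 5-ph-IAA for 14 days. TIR1(F74G) is a plant E3 ligase that, with 5-ph-IAA, marks the fusion protein for degradation. In R26-TIR1(F74G) mice it is encoded with mCherry in the ROSA26 locus behind a STOP cassette, which the Cre made under the Foxp3 promoter removes. R26-WT mice lack it and keep the Foxp3 protein. The file headers name male mice, and the labels do not state the age. The study's methods describe a sort on ZsGreen and, for cells with TIR1, also on mCherry, so such a gate cannot be told apart from the genotype. Where nothing ties libraries to separate mice, the p-values measure the spread between these libraries only.

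Nuclear receptors are transcription factors that are switched by lipid-soluble ligands. Coactivators bound to them recruit enzymes that modify histones and loosen chromatin, and corepressors recruit histone deacetylases. The symbols Ncoa and Ncor name this activity and not 1 protein family: Ncoa1, Ncoa2 and Ncoa3 are related to each other, whereas Ncoa7 and Oxr1 share a TLDc domain, are linked to protection from oxidative stress and bind the V-ATPase, the proton pump that acidifies lysosomes. In other cell types Ncoa7 also makes a short, interferon-induced isoform from an internal start site.

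Ncoa7 lies on the minus strand of chromosome 10, from 30504995 to 30679322 (GRCm39), and has 2 start sites in the RefSeq promoter set, 147459 bases apart. Windows of 300 bases around both sites, from 250 bases before the start to 50 after it, are printed because the counts of this gene sum transcripts from both. They come from RefSeq (GRCm38.p6), and each matched GRCm39 exactly once, at chr10:30679273-30679572 for the upstream site and chr10:30531814-30532113 for the internal site, both read 5′ to 3′ on the minus strand. Capitals mark an interferon-stimulated response element core, searched on both strands as GAAA, 2 bases of any kind and GAAA, after the sequences had been seen.
Ncoa7 upstream start site: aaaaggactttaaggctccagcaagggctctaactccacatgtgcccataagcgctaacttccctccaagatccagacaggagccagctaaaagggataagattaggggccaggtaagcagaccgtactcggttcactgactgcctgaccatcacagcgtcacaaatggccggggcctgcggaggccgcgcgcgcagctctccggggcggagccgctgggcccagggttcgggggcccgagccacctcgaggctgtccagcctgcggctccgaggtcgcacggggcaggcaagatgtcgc
Ncoa7 internal start site: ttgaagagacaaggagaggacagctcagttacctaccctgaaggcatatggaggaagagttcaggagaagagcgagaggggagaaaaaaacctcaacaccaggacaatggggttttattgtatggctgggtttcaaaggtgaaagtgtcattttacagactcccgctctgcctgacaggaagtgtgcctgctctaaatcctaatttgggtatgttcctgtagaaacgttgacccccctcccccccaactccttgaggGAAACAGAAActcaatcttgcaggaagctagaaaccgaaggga

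The upstream window had a GC content of 63.3% and no match to that core. The internal window had a GC content of 48.3% and 1 match, GAAACAGAAA, at bases 258 to 267 of the window. Of 3 windows of Ncoa4, a gene whose log2 fold change was 0.08, 1 also held the core, as TTTCTGTTTC on the opposite strand. Of 32851 RefSeq mouse windows of this length, 3.44% held the core. Neither Ncoa7 window held a forkhead core (TGTTTAC, in 3.65% of all windows) or an AP-1 site (TGANTCA, in 7.81%). In GENCODE M39, 9 Ncoa7 transcripts start within 100 bases of the upstream site, among them one with a coding sequence of 943 codons. A further 6 start within 100 bases of the internal site, among them one with 221 codons. The other 7 of 22 start elsewhere, 4 of them at 30647937, among these one with 943 codons. A count per gene cannot say which start site was used, and the windows are a description and not evidence of binding.

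The values by which Ncoa7 was chosen come first. Its normalized counts, which are counts divided by the size factor of the library, were 15291, 18163, 13135 and 13250 in R26-WT replicates 1 to 4. In the 6 R26-TIR1(F74G) libraries the lowest was 30143, the median 37068 and the highest 42339. Every R26-TIR1(F74G) library was above every R26-WT library, and the lowest of the former was well clear of the highest of the latter. The means were 14960 ± 2354 (SD, n = 4, R26-WT) and 37038 ± 4691 (SD, n = 6, R26-TIR1(F74G)), a ratio of 2.48 and a log2 fold change of 1.31 (SE 0.14).

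**Figure D1:**
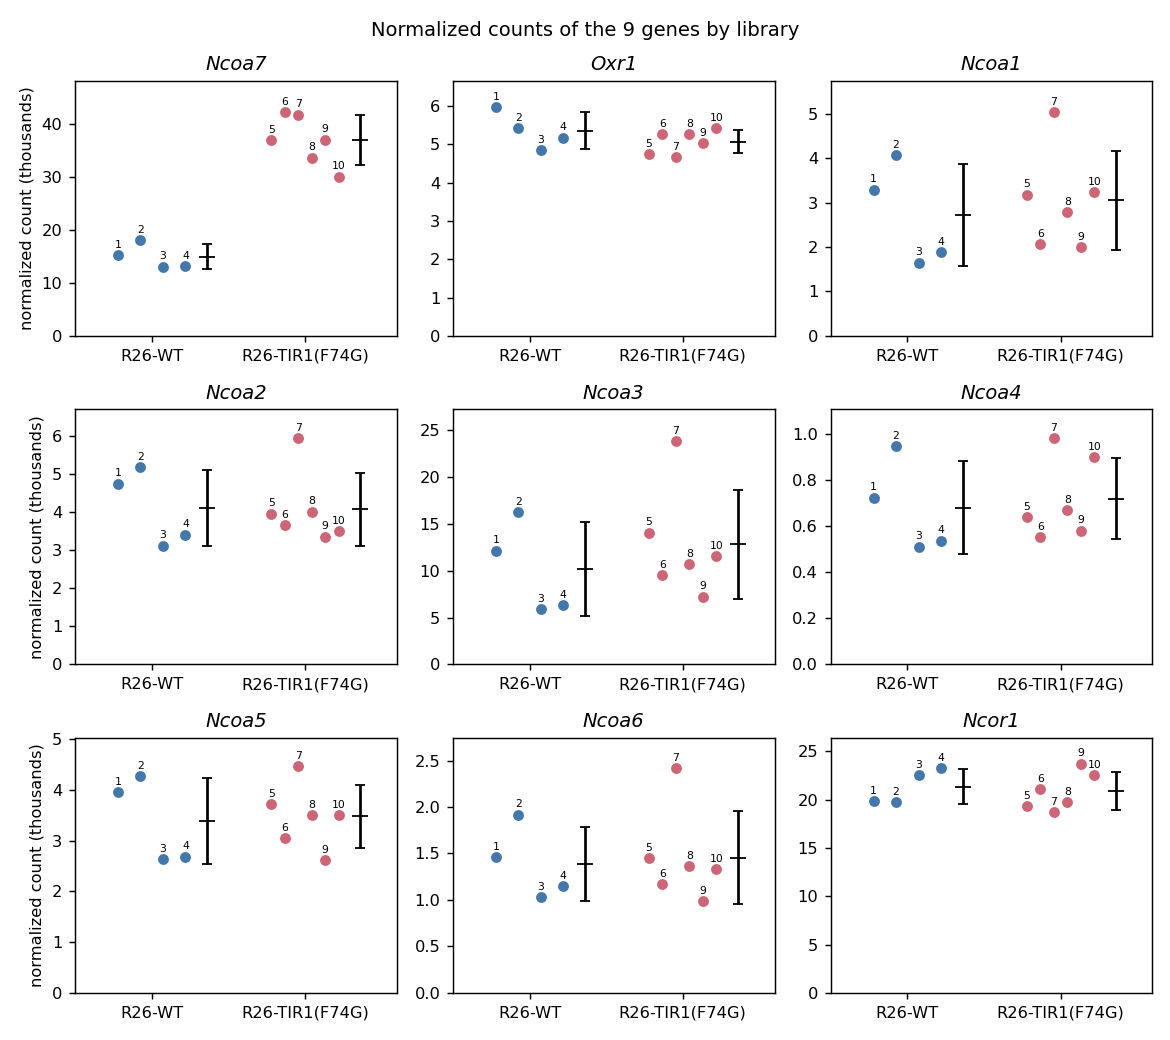
Normalized counts (vertical axis from 0, in units of 1000) of the 9 genes in each library, numbered by replicate, with the group mean and SD beside the points (n = 4 R26-WT, n = 6 R26-TIR1(F74G)). The groups are apart for Ncoa7, which was chosen on this contrast, at most 18163 in R26-WT against at least 30143. They overlap for each of the other 8.

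None of the 8 other genes passed the test. By DESeq2, 0 of 8 passed an adjusted p of 0.05, where 1.74% of all tested genes did, and 0 of 8 had an unadjusted p under 0.05, where 6.86% of all did. By edgeR, which called 0.373% of all genes, 0 of 8 passed, and by limma, which called 0.489%, 0 of 8 passed. Their normalized counts overlapped between the groups in each case, where the groups were apart for 2.37% of all tested genes. A p that misses the threshold does not show that the groups were alike, so the 95% interval of each fold change is given with it. Exons of Ncoa1, Ncoa3 and Ncor1 overlap genes of the opposite strand over at most 1.95% of their bases (Ncoa3 with Sulf2), where pairs that touch both genes were counted for neither, and the other members have no overlap with the opposite strand.

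Oxr1 encodes the closest relative of Ncoa7 and lies on chromosome 15 (41310878 to 41724444, plus strand). Its normalized counts were 5978, 5420, 4852 and 5171 in R26-WT, and from 4664 to 5419 in R26-TIR1(F74G) with a median of 5144. Its highest library was 1.28 times its lowest, close to the 1.27 times of Ncor1 and below the other 7 genes, and the groups overlapped. The log2 fold change was -0.08 (SE 0.10, 95% interval -0.27 to 0.11, adjusted p by DESeq2 0.99996), an interval that lies well below a rise of the size seen for Ncoa7.

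Ncor1 encodes the scaffold that ties unliganded nuclear receptors to the histone deacetylase HDAC3, and lies on chromosome 11 (62207252 to 62349367, minus strand). Its normalized counts were 19822, 19772, 22508 and 23261 in R26-WT, and from 18723 to 23734 in R26-TIR1(F74G) with a median of 20423. The high libraries were spread over both groups. On the log2 scale the fold change was -0.03 (SE 0.11, 95% interval -0.24 to 0.18, adjusted p by DESeq2 0.99996).

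The p160 genes varied far more from library to library. Ncoa3 (chromosome 2, 165834556 to 165915162, plus strand), which encodes SRC-3, had 12134, 16264, 5858 and 6342 normalized counts in R26-WT, and from 7233 to 23764 in R26-TIR1(F74G) with a median of 11147. Both groups held high and low libraries, and R26-TIR1(F74G) replicate 7 was the highest of the 10. The log2 fold change was 0.34 (SE 0.34, 95% interval -0.33 to 1.00, adjusted p by DESeq2 0.99996), so these libraries do not bound Ncoa3 as closely as Oxr1 or Ncor1.

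Ncoa1 (chromosome 12, 4297362 to 4527182, minus strand) encodes SRC-1, the founding p160 coactivator. It had 3288, 4069, 1647 and 1891 normalized counts in R26-WT, and from 2006 to 5037 in R26-TIR1(F74G) with a median of 2980. The order of the libraries was close to that of Ncoa3, with R26-WT replicates 3 and 4 low and R26-TIR1(F74G) replicate 7 high. The fold change on the log2 scale was 0.16 (SE 0.30, 95% interval -0.42 to 0.75, adjusted p by DESeq2 0.99996).

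Ncoa2 (chromosome 1, 13209329 to 13444307, minus strand), the third p160 gene, had 4754, 5177, 3120 and 3412 normalized counts in R26-WT. In R26-TIR1(F74G) it had from 3357 to 5950 with a median of 3811, again highest in replicate 7. The group means of 4116 ± 1003 (SD, n = 4) and 4075 ± 953 (SD, n = 6) were close, and the log2 fold change was -0.01 (SE 0.20, 95% interval -0.41 to 0.38, adjusted p by DESeq2 0.99996).

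Ncoa4, Ncoa5 and Ncoa6 are coactivators by name that are not related in sequence to the p160 genes. Ncoa4 (chromosome 14, 31881822 to 31901812, plus strand), the receptor that delivers ferritin to autophagy, had 681 ± 202 normalized counts (SD, n = 4, R26-WT) and 721 ± 177 (SD, n = 6, R26-TIR1(F74G)), with a log2 fold change of 0.08 (SE 0.23, 95% interval -0.36 to 0.53). Ncoa5 (chromosome 2, 164842277 to 164876787, minus strand) had 3385 ± 848 and 3476 ± 628, a log2 fold change of 0.04 (SE 0.19, 95% interval -0.34 to 0.41). Ncoa6 (chromosome 2, 155232576 to 155315814, minus strand), a subunit of the MLL3/4 histone methyltransferase complex, had 1390 ± 397 and 1454 ± 501, a log2 fold change of 0.07 (SE 0.25, 95% interval -0.43 to 0.56). In each of these 3 genes R26-WT replicate 2 was the highest R26-WT library and R26-TIR1(F74G) replicate 7 the highest of all, and the adjusted p by DESeq2 was 0.99996.

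**Figure D2:**
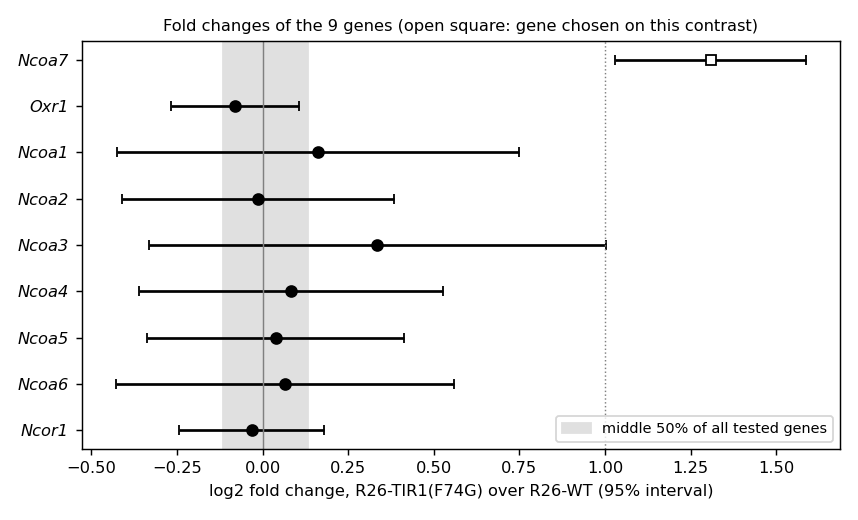
Log2 fold change of R26-TIR1(F74G) over R26-WT with its 95% interval for the 9 genes (horizontal axis), with the middle 50% of all tested genes in grey and a dotted line at 1. Ncoa7, the open square, stands at 1.31. It was chosen on this contrast, so its interval is a description and no test. The intervals of the other 8 genes all include 0, the widest being that of Ncoa3 up to 1.00.

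Levels were compared between genes as RPKM, counts scaled by the exon length in the files and by the total count of the library. That length merges the exons of all transcripts of a gene. For Ncoa7 it is 10565 bases, where the longest transcript in GENCODE M39 has 7520. Orders and percentiles between genes are therefore approximate. In R26-WT the order of the means was Ncor1 (38.1), Ncoa7 (32.4), Ncoa3 (29.3), Ncoa5 (17.6), Oxr1 (17.2), Ncoa1 (7.25), Ncoa2 (6.01), Ncoa6 (3.26) and Ncoa4 (1.66). The ranges of neighbours in this order overlapped except for Oxr1 and Ncoa1, Ncoa2 and Ncoa6, and Ncoa6 and Ncoa4. Compared within each library, Ncoa3 was also above Ncoa5 in 4 of 4. In R26-TIR1(F74G) Ncoa7 stood first with 81.0 ± 9.38 RPKM (SD, n = 6), and its lowest library, at 66.6, was above the highest Ncor1 library, at 43.2. The order of the other 8 was as in R26-WT, and among them only the ranges of Oxr1 and Ncoa1 did not overlap as neighbours. Within each of the 6 libraries, however, Ncoa3 was above Ncoa5, Ncoa1 above Ncoa2, Ncoa2 above Ncoa6 and Ncoa6 above Ncoa4. Ncor1 was above Ncoa3 in 4 of 6, and Ncoa5 above Oxr1 in 4 of 6. Ncoa7 made up 20.1% to 22.3% of the RPKM summed over the 9 genes in the R26-WT libraries and 33.7% to 44.8% in the R26-TIR1(F74G) libraries. The change in its rank and share restates the rise on which Ncoa7 was chosen and is no further result. Its mean RPKM over the 10 libraries was above that of 94.1% of tested genes, against 36.1% for Ncoa4, the least abundant of the 9.

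**Figure D3:**
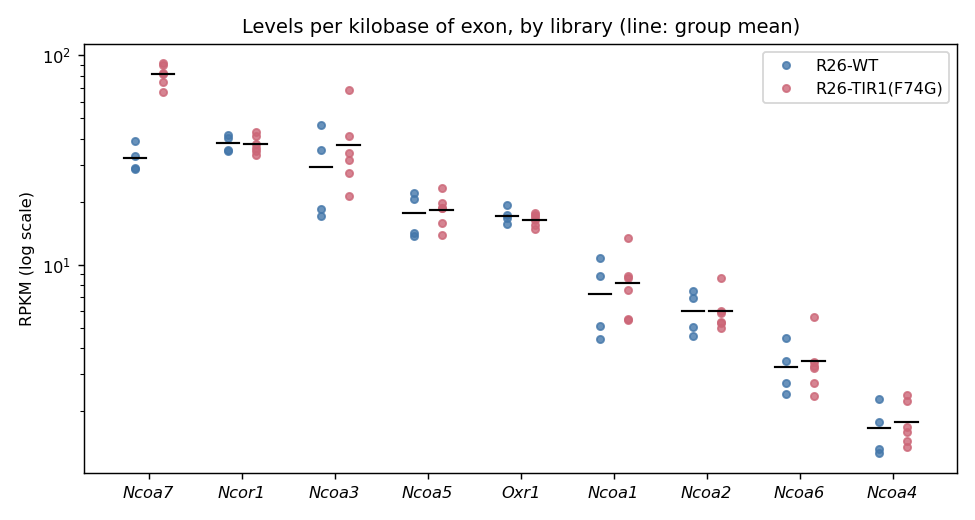
RPKM of the 9 genes in each library on a log axis, ordered by the R26-TIR1(F74G) mean, with a line at each group mean. By group means Ncoa7 is second among the 9 genes in R26-WT (32.4 RPKM) and first in R26-TIR1(F74G) (81.0 RPKM), while the other 8 keep their order. The change of Ncoa7 restates the rise on which it was chosen.

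Ncoa1 to Ncoa6 varied together across libraries, along a line that was not that of genotype. After the mean of each group was subtracted, the 15 pairs among them had Pearson r of log2 normalized counts from 0.79 to 0.98 with a median of 0.93 (n = 10 libraries, as a description). R26-TIR1(F74G) replicate 7 was the highest library and R26-WT replicate 2 the second for all 6 genes. Oxr1 did not share this pattern (r from -0.06 to 0.22 with the 6 genes), Ncor1 ran against it (-0.88 to -0.54) and Ncoa7 shared it in part (0.33 to 0.68). The points of all these pairs share library, depth and preparation.

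The same order of libraries appeared over the whole transcriptome when genes were sorted by exon length. This length merges the exons of all transcripts of a gene, and the length of the transcripts present was not measured. Each library was given the median, over the 1637 genes in the longest 10% by exon length (8777 bases or more), of the log2 deviation from the mean over libraries. This median ran from -0.30 to 0.27 in R26-WT and from -0.19 to 0.39 in R26-TIR1(F74G), so the groups overlapped. With group means subtracted it had an r of 0.99 with Ncoa1 (Spearman's rho 0.99), 0.99 with Ncoa3 (rho 0.98), 0.97 with Ncoa5 and Ncoa6 (rho 0.98 for both), 0.95 with Ncoa2 (rho 0.92) and 0.91 with Ncoa4 (rho 0.89), over 10 libraries. Without the 2 libraries farthest from its median, R26-WT replicate 2 and R26-TIR1(F74G) replicate 7, r was from 0.79 to 0.99 for these 6 genes. Ncoa5 is not among the longest genes, as its 4383 exon bases exceed those of 61.8% of tested genes. Across all tested genes, the r of log2 exon length with the deviation in a library was from -0.29 to 0.32. Whether length accounts for the shared pattern was not tested.

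The relation to this pattern differed among the long members. Ncor1, with 12811 exon bases longer than 96.8% of tested genes, had an r of -0.81 (rho -0.83, and -0.73 without those 2 libraries), and Oxr1, with 7136 bases, had 0.09 (rho 0.18, and 0.59 without them). Ncoa7, with 10565 bases, had 0.54 (rho 0.45), which was 0.01 without those 2 libraries. When the trend over gene length was removed from each library, the SE of the log2 fold change fell from 0.30 to 0.20 for Ncoa1, from 0.20 to 0.09 for Ncoa2, from 0.34 to 0.25 for Ncoa3, from 0.23 to 0.14 for Ncoa4, from 0.19 to 0.15 for Ncoa5 and from 0.25 to 0.14 for Ncoa6. It rose from 0.11 to 0.20 for Ncor1 and from 0.10 to 0.13 for Oxr1. The log2 fold change of Ncoa7 was then 1.27 (SE 0.14), and 0 of the other 8 passed. RNA integrity per library is not given in the labels, and its part in this pattern was not tested.

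**Figure D4:**
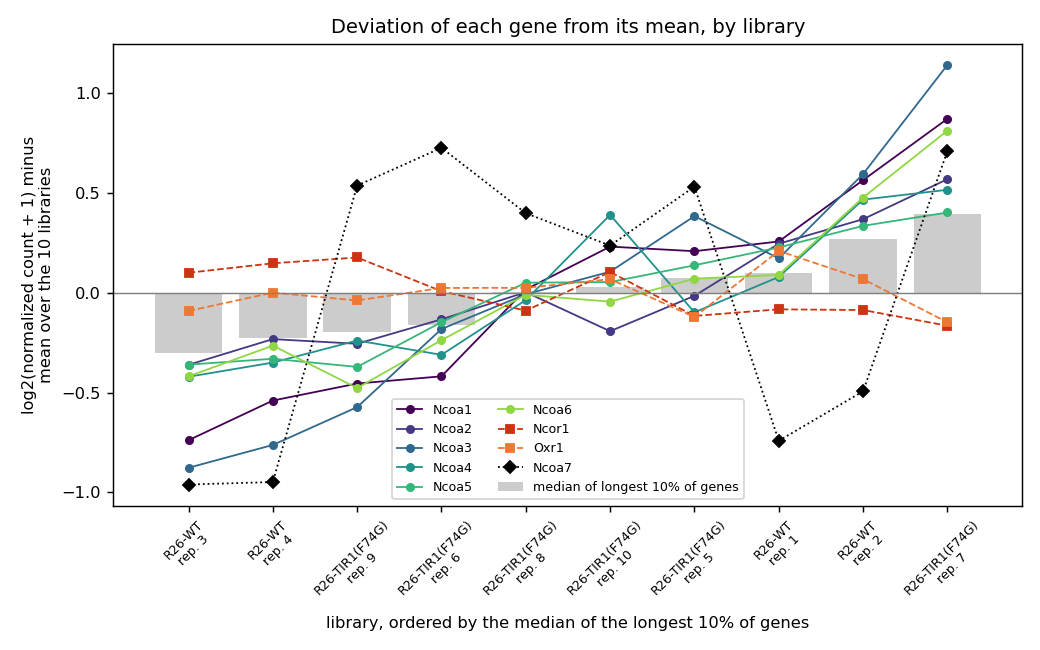
Deviation of each gene from its mean over the 10 libraries (log2, vertical axis), with libraries ordered from left to right by the median deviation of the longest 10% of genes (grey bars, -0.30 to 0.39). Ncoa1 to Ncoa6 climb with the bars, Ncor1 slopes the other way, Oxr1 varies little, and Ncoa7 is above its mean in the R26-TIR1(F74G) libraries wherever they fall in the order.

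The genes that work with the members were read from the same fit, in which 1.74% of all tested genes passed by DESeq2, 0.373% by edgeR and 0.489% by limma, and 6.86% had an unadjusted p under 0.05. For a list of 20 genes or fewer, 0 calls is near these shares and is not a result about the list, and the values of the genes are given as a description. Of the other 3 TLDc genes, 0 passed by DESeq2, edgeR or limma. Meak7 had a log2 fold change of 0.22 (SE 0.18) at 512 ± 81.7 normalized counts (SD, n = 4, R26-WT), and Tbc1d24 and Tldc2, with means under 40 in each group, had 0.15 (SE 0.44) and -0.72 (SE 0.52).

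Of the 10 p160 partners, among them the acetyltransferases Ep300, Crebbp and Kat2a and subunits of Mediator, 0 passed by any of the 3 tools or at an unadjusted p of 0.05. Their median log2 fold change was 0.05, against 0.00063 over all tested genes, and the 2 largest were those of Med24 (0.21, SE 0.23) and Kat2a (0.20, SE 0.16). Of the 9 tested genes of the complex around Ncoa6 and MLL3/4, 0 passed by any of the 3 tools or at an unadjusted p of 0.05, with a median of 0.02, and Paxip1 (0.21, SE 0.28) and the methyltransferase gene Kmt2d (0.15, SE 0.17) were the largest. Pagr1a was below the count minimum.

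Of 6 genes of the complex of Ncor1 with Hdac3, Tbl1x, Tbl1xr1, Gps2 and Coro2a, 0 passed by any of the 3 tools or at an unadjusted p of 0.05, with a median log2 fold change of -0.037. Tbl1xr1 had 0.19 (SE 0.28) and Coro2a -0.17 (SE 0.27). Of 17 tested genes for other coregulators, 0 passed in the same tools and 0 at an unadjusted p of 0.05, with a median of 0.03. The largest were Zmiz1 (0.25, SE 0.29) and the corepressor gene Nrip1 (0.24, SE 0.25).

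Among the receptors themselves, 2 of 20 tested genes passed by DESeq2, where 1 rose (1.4% of all tested genes did) and 1 fell (0.336% did). By edgeR and by limma 0 of 20 passed, and 4 had an unadjusted p under 0.05 by DESeq2, where 6.86% of all tested genes did. Vdr, the vitamin D receptor gene, was low throughout, with 18.7 ± 9.54 normalized counts (SD, n = 4, R26-WT) and 60.0 ± 32.6 (SD, n = 6, R26-TIR1(F74G)). Its log2 fold change was 1.70 (SE 0.45, adjusted p by DESeq2 0.014), its groups overlapped, and edgeR did not call it (adjusted p 0.22). The DESeq2 call of Vdr was lost without R26-WT replicate 1, 3 or 4 or R26-TIR1(F74G) replicate 6 or 9 (adjusted p from 0.054 to 0.11).

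Thra, a thyroid hormone receptor gene, was lower in R26-TIR1(F74G). It had 442, 388, 416 and 468 normalized counts in R26-WT and from 249 to 343 in R26-TIR1(F74G), so the groups were apart. This is a log2 fold change of -0.57 (SE 0.13, adjusted p by DESeq2 0.0030), and edgeR did not call it (adjusted p 0.10). Without R26-WT replicate 4 the adjusted p by DESeq2 was 0.060. Thra overlaps Nr1d1 on the opposite strand, and read pairs that touch exons of both were counted for neither. Nr1d1 had a log2 fold change of 0.07 (SE 0.19). The related gene Thrb had -0.44 (SE 0.19, adjusted p by DESeq2 0.42). The median over the 20 receptors was 0.010, and the glucocorticoid receptor gene Nr3c1, named with Nr1d1 after their values were seen, had 7630 ± 342 and 7135 ± 335 normalized counts and a log2 fold change of -0.10 (SE 0.08).

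**Figure D5:**
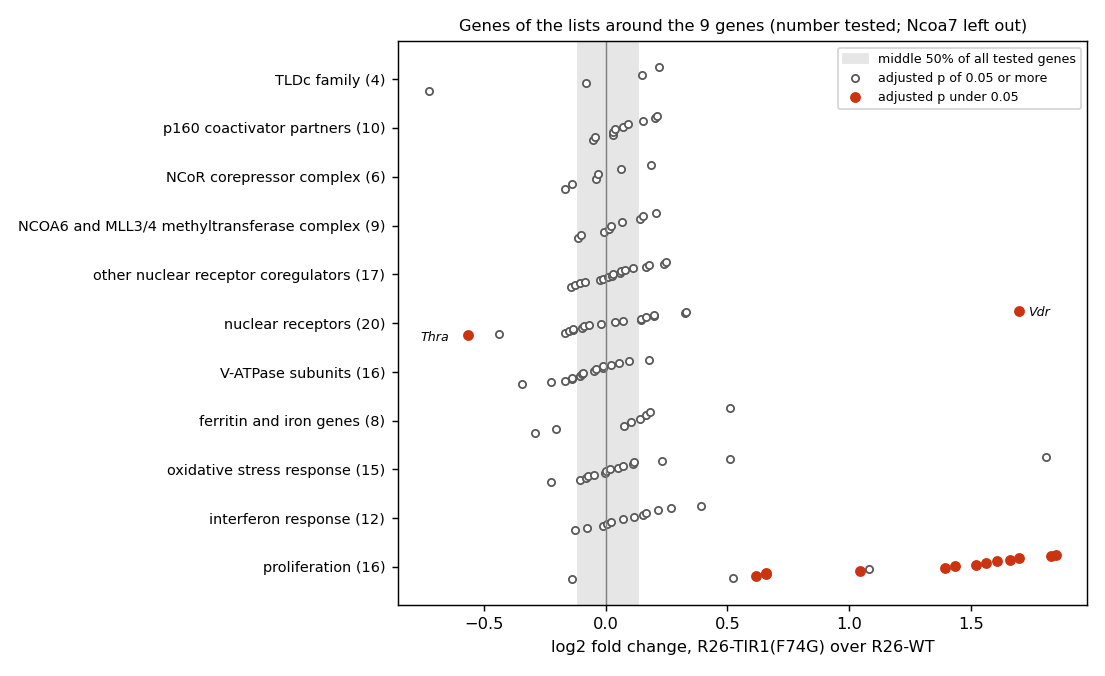
Log2 fold change of R26-TIR1(F74G) over R26-WT (horizontal axis) for the tested genes of each list other than Ncoa7, 1 point a gene, filled where the adjusted p by DESeq2 is under 0.05, with the middle 50% of all tested genes in grey. Filled points are Vdr (1.70) and Thra (-0.57) among the nuclear receptors and 13 of 16 proliferation genes, and the other 9 lists have none once Ncoa7 is left out.

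Genes of the processes tied to Ncoa7 and Oxr1 were read next. Of 16 V-ATPase subunit genes, 0 passed by any of the 3 tools or at an unadjusted p of 0.05, and 4 had a log2 fold change above 0 (50.1% of all tested genes did), with a median of -0.07. Atp6v0a1 (-0.35, SE 0.31) and Atp6v1d (-0.23, SE 0.15) were the largest. Of 15 tested oxidative stress genes, 0 passed by any of the 3 tools and 2 had an unadjusted p under 0.05, against 6.86% of all tested genes. One of them was Nfe2l2, the gene of the stress-response factor NRF2, with 4067 ± 267 normalized counts (SD, n = 4, R26-WT) and 4769 ± 297 (SD, n = 6, R26-TIR1(F74G)), with a log2 fold change of 0.23 (SE 0.09, adjusted p by DESeq2 0.29). The other was Nqo1, named after its values were seen, with 9.52 ± 4.37 and 33.1 ± 27.2 and a log2 fold change of 1.81 (SE 0.70, adjusted p by DESeq2 0.28). Nqo1 was called without R26-TIR1(F74G) replicate 5, and Srxn1, below the count minimum, was called with no filter on low counts. Gpx4 had -0.23 (SE 0.17).

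Ferritin and iron genes, the ground of Ncoa4, gave 0 calls of 8 tested by any of the 3 tools and 0 at an unadjusted p of 0.05. Their median was 0.12, and the ferritin genes Ftl1 and Fth1 had log2 fold changes of -0.29 (SE 0.15) and -0.21 (SE 0.19).

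Interferon-stimulated genes were listed because of the motif searched above. Of 12 such genes, 0 passed by any of the 3 tools or at an unadjusted p of 0.05, 9 had a log2 fold change above 0 and the median was 0.09. Ifi44 had 0.39 (SE 0.24) and Rsad2 0.27 (SE 0.21). The mean log2 level over the 12 genes was from 11.2 to 11.4 in R26-WT and from 10.9 to 11.8 in R26-TIR1(F74G), so the groups overlapped, and with group means subtracted it had an r of -0.02 with Ncoa7 (n = 10 libraries).

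Most proliferation genes rose in R26-TIR1(F74G) and are given beside Ncoa7 for that reason. Of 16 genes, 13 rose by DESeq2 (1.4% of all tested genes did), 5 were called by edgeR (0.373%) and 7 by limma (0.489%), and the median log2 fold change was 1.41. The list was chosen with earlier results of these data known, so these counts beside the shares are a description and no test. The 13 were Mki67, Top2a, Ccnb2, Cdk1, Ccna2, Birc5, Bub1, Plk1, Aurkb, Mcm3, Mcm5, Rrm2 and Tyms. Those not called were Ccnb1 (1.08, SE 0.36), Mcm2 (0.52, SE 0.20) and Pcna (-0.14, SE 0.13), with adjusted p by DESeq2 of 0.10, 0.28 and 0.99996. The mitotic genes Ccnb2, Mki67 and Cdk1 had log2 fold changes of 1.83 (SE 0.34), 1.70 (SE 0.40) and 1.39 (SE 0.21). Of these, Cdk1 was also called by edgeR (adjusted p 0.014), Ccnb2 and Mki67 were not (0.064 and 0.18), and the groups overlapped for Mki67. The mean log2 level over the 16 genes was 8.28 ± 0.45 (SD, n = 4, R26-WT) and 9.49 ± 0.30 (SD, n = 6, R26-TIR1(F74G)), and with group means subtracted it had an r of 0.67 with Ncoa7 (n = 10 libraries). Its part in the difference of Ncoa7 was not tested, and in bulk samples more RNA per cell and more cells of a kind cannot be told apart.

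Of 8 tested genes within 500 kb of Ncoa7, 0 passed by DESeq2 or edgeR and 0 had an unadjusted p under 0.05, counts near the shares over all genes (1.74%, 0.373% and 6.86%). Hint3, which overlaps the end of Ncoa7 on the same strand in 0.738% of the exon bases of Ncoa7, had 1022 ± 133 normalized counts (SD, n = 4, R26-WT) and 1056 ± 140 (SD, n = 6, R26-TIR1(F74G)), with a log2 fold change of 0.05 (SE 0.14). Inside the span of Ncoa7, Gm5171 had -0.05 (SE 0.11), and Gm48334 and Gm48335, with means under 40 in each group, had 0.32 (SE 0.34) and 1.11 (SE 0.70). Within 30 kb beyond the end of Ncoa7, Gm20300 had 0.30 (SE 0.29) and Trmt11 0.04 (SE 0.11). More than 400 kb away, Cenpw had 0.22 (SE 0.19) and Gm5422 0.10 (SE 0.13).

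The genes whose pattern was most like that of Ncoa7 were found among 12609 other genes with a mean normalized count of at least 50, by Pearson r of log2(normalized count + 1) over the 10 libraries, as a description. They were Dusp10 (r = 0.98), a MAP kinase phosphatase gene, Rflnb (0.98), which encodes a filamin-binding protein, the myosin gene Myo6 (0.97), the spindle gene Ska1 (0.97) and Gm11223 (0.96). Their log2 fold changes were 0.68 (SE 0.09), 0.89 (SE 0.10), 1.37 (SE 0.18), 1.97 (SE 0.29) and 1.23 (SE 0.15), so the likeness came with a difference between the groups in the same direction. With group means subtracted the list was another one: Gm31812 (0.94), Ilrun (0.92), Lyst (0.89), Fosl2 (0.88) and Gm17826 (0.88). No gene was in both lists of 5.

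Depth and purity bear on every value above. Total counts were lowest in replicate 8 of R26-TIR1(F74G), at 24158699, and highest in replicate 1 of R26-WT, at 54795718, with means of 51171204 ± 4394248 (SD, n = 4) and 40328847 ± 8971751 (SD, n = 6). An exact two-sided permutation test of this difference, over 210 assignments, gave a p of 0.048, and the values above are scaled for it. The 8 Treg and CD4 T cell markers summed to between 5366 and 6740 CPM (counts scaled to the library total) in each library. The highest were the general T cell genes Trac, Trbc2 and Cd3e, at 952 to 2178 CPM, against 156 to 365 for Foxp3. The sum therefore does not separate Treg cells from other CD4 T cells. By DESeq2 0 of 8 were called, which is near the share over all tested genes (1.74%). B cell markers summed to at most 31.2 CPM and CD8 and NK cell markers to at most 42.3. Of the latter, Cd8b1 reached 41.5 and Cd8a 0.75. Myeloid markers summed to at most 1.01 and erythroid markers to at most 0.53. Only 2 of 5 B cell, 4 of 5 CD8 and NK cell, 2 of 5 myeloid and 1 of 3 erythroid markers were tested. By DESeq2 0 were called in each list, which so few genes make uninformative. Cd14 and Ncr1 were at 0 in all 10 libraries. The Foxp3 transcript, whose protein the degron removes, does not check the genotype.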

How the data were processed

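RNA-seq was measured in 10 libraries, 4 R26-WT and 6 R26-TIR1(F74G). The authors deposited raw counts of read pairs for each gene name, made with featureCounts 2.1.1 on GENCODE M30 (GRCm39), per the file headers, from pairs with both mates mapped and a mapping quality of at least 30, without a strand option. Pairs that overlap several genes were left out. The methods name STAR and the labels Bowtie2 for alignment. The deposited exon length, in another column, served for RPKM. The labels name PCR amplification and no molecular identifiers.

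Counts were tested in R 4.3.3 with DESeq2 1.42.0 (genotype only, two-sided Wald test, Benjamini-Hochberg adjusted p under 0.05 over the 16363 genes whose mean count was 10 or more). Intervals are 1.96 SE on either side. Alternatives were edgeR 4.0.16 (quasi-likelihood), limma 3.58.1 (voom with quality weights), TMM size factors, no filter on low counts, removal of the trend over gene length in each library (lowess, span 0.3), other windows around Ncoa7, RPKM with TMM totals and leaving out each library. The tests were checked on simulated data first. Lists of genes came from general knowledge, and in each list the called genes and the 2 with the largest change at a mean normalized count of at least 50 are named. Some genes are not reported here. The members and the lists were chosen with earlier results of these data known. Promoter windows were available for 6 of the 9 genes; Oxr1, Ncoa2 and Ncoa3 had none.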

Additional observations from a re-analysis of the deposited data

Results flagged for a closer look

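Values far from the rest of their group were looked for in the normalized counts of the members and of the named genes of the lists and in the total counts, in 86 groups of 4 or 6 libraries. A gap of this size is met by chance in about 1 group in 20, and 5 groups had one, each of them in R26-TIR1(F74G) replicate 7. There Ncoa2 had 5950 normalized counts, where the other 5 had 3357 to 4017, and Ncoa6 had 2420 against 989 to 1446. Zmiz1 had 5737 against 2037 to 3023, Bub1 269 against 60.6 to 126 and Aurkb 487.0 against 222 to 292. This library also had the highest median of the longest 10% of genes, 0.39 on the log2 scale, and the part of that in these values was not tested. Without it the log2 fold change of Ncoa2 was -0.15 and that of Ncoa6 -0.14, and neither was called.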

How the results depend on the processing

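No paired analysis was possible because no replicate number of the labels occurs in both groups. For the 8 members other than Ncoa7, 0 were called in each of the 15 alternatives, and for the neighbours of Ncoa7 0 were called in these and with windows of 250 kb and 1 Mb. Over all genes 284 were called by DESeq2, 61 by edgeR and 80 by limma, and from 187 (without R26-WT replicate 4) to 346 (without R26-WT replicate 2) when a library was left out. With the trend over gene length removed 377 were called. Genes called lower numbered 55 with all libraries, 94 without that trend and from 26 (without R26-WT replicate 3) to 88 (without R26-WT replicate 2). Of 113 genes on the lists other than the members and the proliferation list, 2 were called by DESeq2 (Thra and Vdr), 0 by edgeR and 0 by limma, and from 0 (without R26-WT replicate 4) to 3 (without R26-TIR1(F74G) replicate 5, with Nqo1) when a library was left out. With no filter on low counts 3 were called, with Srxn1. Thra was called in 12 of 15 alternatives and Vdr in 8. The cause of the lower counts of the other tools was not tested.

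For Ncoa7 the log2 fold change was from 1.25 to 1.42 when a library was left out and from 1.27 to 1.31 in the other alternatives. Single libraries turned the direction of small fold changes when left out, from -0.040 to 0.42 for Ncoa1, from -0.15 to 0.12 for Ncoa2, from -0.030 to 0.29 for Ncoa4, from -0.064 to 0.17 for Ncoa5, from -0.14 to 0.26 for Ncoa6 and from -0.069 to 0.014 for Ncor1. Those of Ncoa3 (0.06 to 0.66) and Oxr1 (-0.12 to -0.02) kept their sign. The highest value of Ncoa1 to Ncoa6 came without R26-WT replicate 2, and the lowest without R26-TIR1(F74G) replicate 7 or R26-WT replicate 3. Depth limits the low genes, such as Vdr, Nqo1 and Tldc2, more than the members, and counting error covers no error of amplification.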
